A study of Mus musculus with 34 samples.

Results

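Described here are 10 genes of the brain endothelium, the cells that line blood vessels, in the cortex of mice with or without a chromosome 16 duplication and amyloid transgenes. The genes were picked by symbol from the gene names of the deposited count table and are Vwf, Cldn5, Pecam1, Flt1, Kdr, Erg, Alpl, Ly6c1, Slco1a4 and Abcb1a. All 10 were found among 55385 genes listed, and all 10 passed the low-count filter that left 17632 genes for testing. The rule itself names symbols and no measured value, but the genes were proposed with earlier results of these data known. Brain endothelial cells form the blood-brain barrier: tight junctions seal the gaps between them, and transporters on their surface decide which molecules pass. Endothelial identity in many tissues is kept by ETS transcription factors, of which Erg is among the most studied, and growth of vessels is driven by the growth factor VEGF through its receptors. Erg lies inside the duplicated segment, so carriers have an additional copy of it, whereas the other 9 genes lie outside.

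The mice were 5xFAD-Dp16, Dp16, 5xFAD or wild-type C57BL/6J, all aged 6 months. Dp16 mice carry a duplication of a part of mouse chromosome 16 that matches much of human chromosome 21, of which people with Down syndrome have an additional copy. The 5xFAD strain carries human amyloid precursor and presenilin transgenes with familial Alzheimer's disease mutations, and 5xFAD-Dp16 mice carry both alterations. The transgenes are driven by Thy1 sequences, which are active in neurons and not in endothelium. The duplication is present in every cell. Each genotype received tofacitinib, an inhibitor of Janus kinases, at 15 mg/kg daily by oral gavage for 1 month, or sham gavage with 0.5% methylcellulose. The tofacitinib and sham groups held 4 and 3 mice in 5xFAD-Dp16, 5 and 3 in Dp16, 5 and 4 in 5xFAD, and 5 and 5 in wild-type. In all there were 16 female and 18 male mice. Poly-A RNA of the brain cortex was sequenced, with 1 library per mouse, and the comparisons with wild-type mice of a treatment share those wild-type mice. The study design names 1 more 5xFAD-Dp16 sham mouse and 1 more 5xFAD tofacitinib mouse, which were not analysed here.

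The 34 libraries held 16029841 to 21388650 counted reads each. Of the 106 tested genes of the segment, those other than App had a median ratio to wild-type sham of 1.37 to 1.49 in the 15 duplication carriers. In the 19 non-carriers it was 0.928 to 1.07. Thy1, whose sequences drive the transgenes, lay at 1427 to 2572 CPM (each gene's share of the counted reads, scaled to a fixed library size and adjusted between libraries by the TMM method) in the 16 5xFAD carriers and at 824 to 952 CPM in the 18 mice without them. On the second principal component, replicate 2 of the 5xFAD tofacitinib group lay lowest and replicate 2 of the wild-type sham group highest. The libraries also differed in how counts followed gene length: Spearman's rho across genes, between gene length and a library's deviation from the mean log2 CPM, ran over the libraries from -0.440 to 0.390, and longer genes were the higher ones where it was positive. For description, 20 pan-endothelial genes that are not among the 10 were also examined, such as Cdh5, Tek and Tie1. Their presence does not show which cells the reads of the 10 genes came from. All 20 were counted in all 34 libraries, and their summed level was 659 to 758 CPM in 5xFAD-Dp16, 658 to 754 CPM in Dp16, 609 to 774 CPM in 5xFAD and 626 to 813 CPM in wild-type mice. The largest part of the sum was S1pr1, at a mean of 237 CPM, against 23.3 CPM for Cdh5. In bulk tissue, fewer endothelial cells and less RNA per cell cannot be told apart.

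Per kilobase of gene, the endothelial genes spanned a wide range. Cldn5, the claudin that seals brain endothelial tight junctions, was the highest, at 36.9 ± 6.71 RPKM (the authors' counts scaled by gene length and library size, SD, n = 34). Ly6c1, a surface antigen enriched in brain capillary endothelium of mice, followed at 23.2 ± 4.24 RPKM. Then came Flt1, the VEGF receptor that binds its ligand tightly and acts largely as a trap, at 9.73 ± 1.58 RPKM, and Slco1a4, an organic anion transporter, at 9.19 ± 1.22 RPKM. Pecam1, a junctional adhesion molecule, was at 7.93 ± 0.784 RPKM and Abcb1a, the P-glycoprotein drug efflux pump, at 7.74 ± 0.949 RPKM. Flt1 and Slco1a4, and likewise Pecam1 and Abcb1a, differed by less than the spread between mice. Alpl, the tissue-nonspecific alkaline phosphatase of capillary endothelium, was at 4.49 ± 1.18 RPKM. Kdr, the main signalling receptor of VEGF, was at 2.88 ± 0.655 RPKM, Erg at 2.69 ± 0.481 RPKM, and Vwf, the clotting glycoprotein von Willebrand factor, at 2.42 ± 0.745 RPKM. These last 3 overlapped. The fewest reads behind any value were 88 for Alpl and 101 for Erg, against 1232 or more for Flt1 in every library.

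The deposited tables are named for GENCODE M24, and the positions given here are those of GENCODE M21 on GRCm38, matched by gene ID without its version. Erg (ENSMUSG00000040732.20) lies on chromosome 16 from 95359169 to 95586593, inside the segment from 75540514 to 97962622. Cldn5 (ENSMUSG00000041378.2) also lies on chromosome 16, from 18776847 to 18778262, but outside the segment. Vwf (ENSMUSG00000001930.17) lies on chromosome 6 from 125546774 to 125686679, and Slco1a4 (ENSMUSG00000030237.14) on the same chromosome from 141805440 to 141856199. Flt1 (ENSMUSG00000029648.13), Kdr (ENSMUSG00000062960.10) and Abcb1a (ENSMUSG00000040584.8) lie on chromosome 5, from 147561604 to 147726011, 75932827 to 75978458 and 8660077 to 8748575. Pecam1 (ENSMUSG00000020717.19) lies on chromosome 11 from 106654217 to 106750628, Alpl (ENSMUSG00000028766.10) on chromosome 4 from 137741733 to 137796384, and Ly6c1 (ENSMUSG00000079018.10) on chromosome 15 from 75044018 to 75048830. Ly6c1, Abcb1a and Slco1a4 have close paralogs, Ly6c2, Abcb1b and other Slco1a genes, whose reads the counting could have split, so their levels are less certain than those of the others. The strand setting of the counting was not given in the sources used here, so reads of a gene and of any antisense partner could not be told apart.

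Promoters are shown because Erg and its relatives bind DNA around the letters GGAA, the core of ETS sites. RefSeq promoters on GRCm38.p6, each 250 bases before to 50 bases after a transcript start, were matched for 7 of the 10 genes at their annotated start. Those of Erg (chr16:95586544-95586843, minus strand), Alpl (chr4:137796335-137796634, minus), Flt1 (chr5:147725962-147726261, minus) and Cldn5 (chr16:18776597-18776896, plus) read as follows, 5′ to 3′, with GGAA and its reverse complement TTCC in capitals.
Erg promoter: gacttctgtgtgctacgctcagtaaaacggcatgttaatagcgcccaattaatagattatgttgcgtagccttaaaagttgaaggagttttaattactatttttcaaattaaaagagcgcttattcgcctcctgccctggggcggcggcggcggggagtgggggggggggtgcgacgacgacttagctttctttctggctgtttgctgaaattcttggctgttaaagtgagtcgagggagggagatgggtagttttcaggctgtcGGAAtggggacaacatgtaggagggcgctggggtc
Alpl promoter: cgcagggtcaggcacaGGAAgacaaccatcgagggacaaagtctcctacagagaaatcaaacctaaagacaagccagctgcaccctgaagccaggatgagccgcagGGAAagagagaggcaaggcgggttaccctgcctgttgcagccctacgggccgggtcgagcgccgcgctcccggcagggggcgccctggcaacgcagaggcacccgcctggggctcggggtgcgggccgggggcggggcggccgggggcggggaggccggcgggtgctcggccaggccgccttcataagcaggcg
Flt1 promoter: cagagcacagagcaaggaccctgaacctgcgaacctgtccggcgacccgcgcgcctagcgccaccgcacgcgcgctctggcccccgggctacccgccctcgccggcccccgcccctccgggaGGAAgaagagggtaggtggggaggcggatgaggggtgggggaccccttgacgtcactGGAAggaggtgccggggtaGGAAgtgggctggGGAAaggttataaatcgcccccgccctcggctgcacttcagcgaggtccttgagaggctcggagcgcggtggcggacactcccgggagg
Cldn5 promoter: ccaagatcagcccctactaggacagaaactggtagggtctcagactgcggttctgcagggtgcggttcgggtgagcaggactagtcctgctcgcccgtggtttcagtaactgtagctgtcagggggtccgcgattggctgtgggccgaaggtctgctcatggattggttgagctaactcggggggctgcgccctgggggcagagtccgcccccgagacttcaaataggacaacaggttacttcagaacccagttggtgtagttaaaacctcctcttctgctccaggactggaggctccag
The 4-letter core occurred 1 time in the Erg window, 2 times in that of Alpl, 4 times in that of Flt1 and 0 times in that of Cldn5, on either strand and without overlap between the 2 spellings. It occurred in 6 of the 7 member windows and in 96.0% of 32851 windows of the same length, with a median of 3. The longer form AGGAAG, which contains the core, occurred in 3 of the 7 and in 35.4% of all windows. The shares are descriptions of letters and say nothing of binding.

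Erg was the member for which carriers have an additional gene copy, and no difference between carriers and non-carriers was detected. In 5xFAD-Dp16 mice it was 8.10, 9.24, 8.45 and 10.9 CPM under tofacitinib and 7.91, 10.7 and 10.3 CPM under sham. In Dp16 mice it was 9.85, 8.96, 6.27, 9.77 and 10.8 CPM under tofacitinib and 7.51, 10.6 and 10.1 CPM under sham. In 5xFAD mice it was 14.3, 6.29, 7.80, 9.18 and 10.7 CPM under tofacitinib and 7.49, 8.12, 10.6 and 10.04 CPM under sham. In wild-type mice it was 5.40, 10.4, 11.6, 8.53 and 9.91 CPM under tofacitinib and 9.03, 9.35, 9.75, 10.3 and 9.90 CPM under sham. The groups overlapped throughout, and the highest and the lowest library both belonged to non-carriers. Over all libraries, Erg averaged 9.29 ± 1.39 CPM in carriers (SD, n = 15) and 9.40 ± 1.96 CPM in non-carriers (SD, n = 19). The mean effect of the duplication, taken in edgeR over 5xFAD status and treatment, was 0.03 on the log2 scale (SE 0.102, 1.02-fold, 95% interval 0.890 to 1.18, adjusted p = 0.933). Among sham mice carriers and non-carriers differed by 0.0118 in mean log2 CPM (6 against 9, two-sided exact permutation p = 0.906). Among tofacitinib mice the difference was -0.0069 (9 against 10, two-sided exact permutation p = 0.963).

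The interval for Erg can be set against the other genes of the segment. Over the 106 tested, the median difference between carriers and non-carriers was 1.46-fold with quartiles of 1.37 and 1.57, 70 rose and 0 fell. The upper bound for Erg, 1.18-fold, lay below the lower quartile, and Erg ranked as the 4th lowest. The 3 genes below it were Gm10785, Gm9843 and Clic6. Not all other segment genes were called: B3galt5 was at 1.13-fold (edgeR adjusted p = 0.269) and Sh3bgr at 1.07-fold (adjusted p = 0.913). Some genes near Erg rose in the same mice. Ets2, another ETS factor beside Erg, rose 1.35-fold (adjusted p = 0.000333), and Psmg1, a proteasome assembly chaperone, 1.41-fold (adjusted p = 0.000604). Brwd1, which has bromodomains, rose 1.63-fold (adjusted p = 4.12e-15). Gabpa, an ETS factor farther away in the segment, rose by 0.51 on the log2 scale (adjusted p = 3.36e-06). Erg was also divided by the geometric mean of the other 9 endothelial genes within each library, with 0.5 added to every CPM. This ratio was 0.298 ± 0.0349 in carriers (SD, n = 15) and 0.306 ± 0.0590 in non-carriers (SD, n = 19), a difference smaller than the spread.

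**Figure D1:**
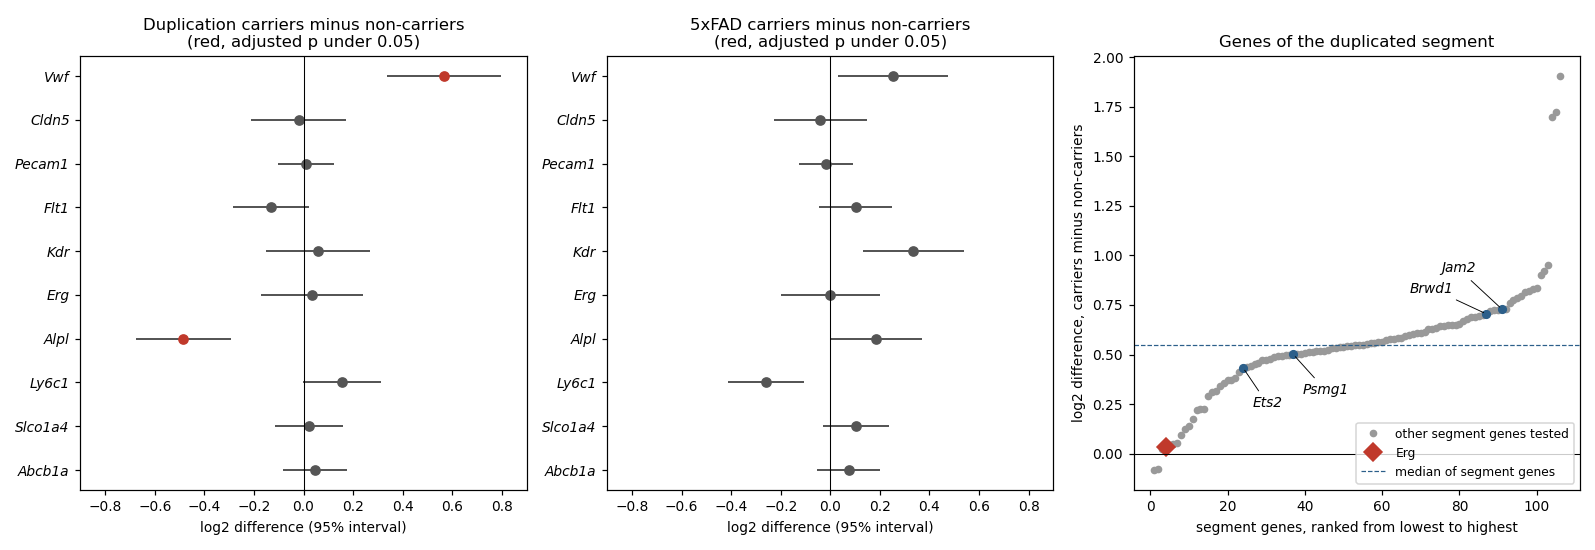
The left and middle panels plot the log2 difference of each of the 10 genes with its 95% interval, for duplication carriers minus non-carriers and for 5xFAD carriers minus non-carriers, with genes at an adjusted p under 0.05 in red. The right panel ranks the 106 tested segment genes by the log2 difference between carriers and non-carriers, and Erg lies 4th from the low end while Ets2, Psmg1, Brwd1 and Jam2 lie far above it.

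Vwf rose in duplication carriers. In 5xFAD-Dp16 mice it was 24.9, 36.5, 30.9 and 28.4 CPM under tofacitinib and 32.6, 35.5 and 25.3 CPM under sham. In Dp16 mice it was 33.8, 18.8, 32.2, 20.7 and 29.99 CPM under tofacitinib and 33.3, 24.5 and 26.4 CPM under sham. In 5xFAD mice it was 28.5, 18.4, 19.1, 12.6 and 17.1 CPM under tofacitinib and 20.5, 28.6, 20.9 and 30.3 CPM under sham. In wild-type mice it was 13.5, 21.3, 22.1, 22.97 and 20.7 CPM under tofacitinib and 15.3, 12.2, 21.7, 10.03 and 14.3 CPM under sham. Among sham mice, neither carrier group overlapped wild-type, while both overlapped 5xFAD. In all, 14 of 15 carriers exceeded the median of the non-carriers, and 7 exceeded every non-carrier. The mean effect of the duplication was 0.57 on the log2 scale (SE 0.115, 1.48-fold, 95% interval 1.27 to 1.73, edgeR adjusted p = 0.00389). Of all genes tested in this contrast, 2.14% were called.

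Between single groups, 1 comparison of Vwf passed. It averaged 31.1 ± 5.24 CPM in 5xFAD-Dp16 sham (SD, n = 3) and 14.7 ± 4.39 CPM in wild-type sham (SD, n = 5), a 2.09-fold difference that passed the threshold (adjusted p = 0.0227), in a contrast that called 0.363% of genes. Leaving out wild-type sham 1, 2 or 4 in turn, or 5xFAD-Dp16 sham 1 or 2, ended that call, with adjusted p between 0.0631 and 0.214. It also ended with the pan-endothelial level as a covariate (log2 difference 0.87, adjusted p = 0.246). In Dp16 sham Vwf averaged 28.1 ± 4.67 CPM (SD, n = 3), 1.89-fold the wild-type sham level, and did not pass (adjusted p = 0.134, 0.21% of genes called). Without wild-type sham 3 it did (log2 1.10, adjusted p = 0.0243). In 5xFAD sham it averaged 25.1 ± 5.13 CPM (SD, n = 4), 1.72-fold the wild-type sham level, and did not pass either (adjusted p = 0.0606, 0.017% called). Without wild-type sham 3, wild-type tofacitinib 1, 5xFAD tofacitinib 1 or 5xFAD tofacitinib 2 it passed, with adjusted p between 0.0209 and 0.0452. The interaction of the duplication with 5xFAD was -0.20 for Vwf (SE 0.221, adjusted p = 0.995), where 0.00567% of genes were called.

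Platelets and their precursors also make Vwf. Of 9 tested platelet and blood genes, 7 lay above 0 and 2 below in carriers against non-carriers, with a median log2 difference of 0.08. None passed the edgeR test, as 2.14% of all genes did, or reached an unadjusted p under 0.05, as 13.7% did. Pf4, a platelet chemokine, lay between 0 and 1.56 CPM, Ppbp was at 0 in 15 libraries and Gp1ba in 30 of 34. The summed level of the list was 79.5 to 180.1 CPM in 5xFAD-Dp16, 120.0 to 208 CPM in Dp16, 61.9 to 157 CPM in 5xFAD and 74.8 to 203 CPM in wild-type mice. Its largest part was the haemoglobin gene Hbb-bs, at a mean of 78.6 CPM, so the sum is no measure of platelets. The part of platelets in the Vwf difference was not tested. The length trend of the libraries had a median rho of -0.0160 in carriers and -0.0409 in non-carriers, and with that trend removed the difference in Vwf between carriers and non-carriers was 0.56 (adjusted p = 0.000224).

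Alpl fell in duplication carriers. In 5xFAD-Dp16 mice it was 9.54, 9.81, 9.67 and 11.01 CPM under tofacitinib and 8.61, 9.74 and 11.5 CPM under sham. In Dp16 mice it was 8.83, 5.29, 6.50, 8.61 and 10.5 CPM under tofacitinib and 6.16, 9.45 and 11.004 CPM under sham. In 5xFAD mice it was 16.6, 14.7, 12.9, 11.4 and 12.8 CPM under tofacitinib and 12.1, 14.6, 17.03 and 10.8 CPM under sham. In wild-type mice it was 13.3, 15.7, 14.7, 15.98 and 11.4 CPM under tofacitinib and 10.9, 8.46, 12.8, 8.83 and 14.2 CPM under sham. All 15 carriers lay below the median of the non-carriers. Among tofacitinib mice the carriers, at 5.29 to 11.01 CPM, did not overlap the non-carriers, at 11.4 to 16.6 CPM. Among sham mice they did, at 6.16 to 11.5 CPM in carriers and 8.46 to 17.03 CPM in non-carriers. The mean effect of the duplication was -0.48 on the log2 scale (SE 0.0949, 0.715-fold, 95% interval 0.628 to 0.813, adjusted p = 0.00255).

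In Dp16 tofacitinib mice Alpl averaged 7.94 ± 2.04 CPM (SD, n = 5), against 14.2 ± 1.89 CPM in wild-type tofacitinib mice (SD, n = 5). That difference of -0.82 on the log2 scale passed the threshold (adjusted p = 0.0169), in a contrast that called 0.25% of genes. It did not pass without wild-type tofacitinib 2 or 4, or Dp16 tofacitinib 2, 3 or 4, with adjusted p between 0.0521 and 0.0981, nor in a fit of those 2 groups alone (adjusted p = 0.261). In 5xFAD-Dp16 tofacitinib mice the difference from wild-type tofacitinib was -0.49 (adjusted p = 0.414, 0.306% of genes called), and from 5xFAD tofacitinib it was -0.45 (adjusted p = 0.445, 0.238% called). Under sham, 5xFAD-Dp16 differed from 5xFAD by -0.39 (adjusted p = 1.00, 0.102% called). The interaction of tofacitinib and the duplication was -0.30 for Alpl (SE 0.186, adjusted p = 1.00), with 0% of genes called. Fibroblasts of the vessel wall and meninges also express Alpl. Of 8 fibroblast genes, 7 lay above 0 in carriers against non-carriers, with a median of 0.27, and 0 passed the edgeR test, while 2 had an unadjusted p under 0.05, as did 13.7% of all genes. The summed level of the list was 91.0 to 122 CPM in 5xFAD-Dp16, 68.9 to 119.8 CPM in Dp16, 73.5 to 146 CPM in 5xFAD and 63.4 to 105 CPM in wild-type mice. Its largest part was Pdgfra, at a mean of 49.6 CPM. That gene is also on the oligodendrocyte list used here, so the sum is no measure of fibroblasts. The part of fibroblasts in the Alpl result was not tested.

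**Figure D2:**
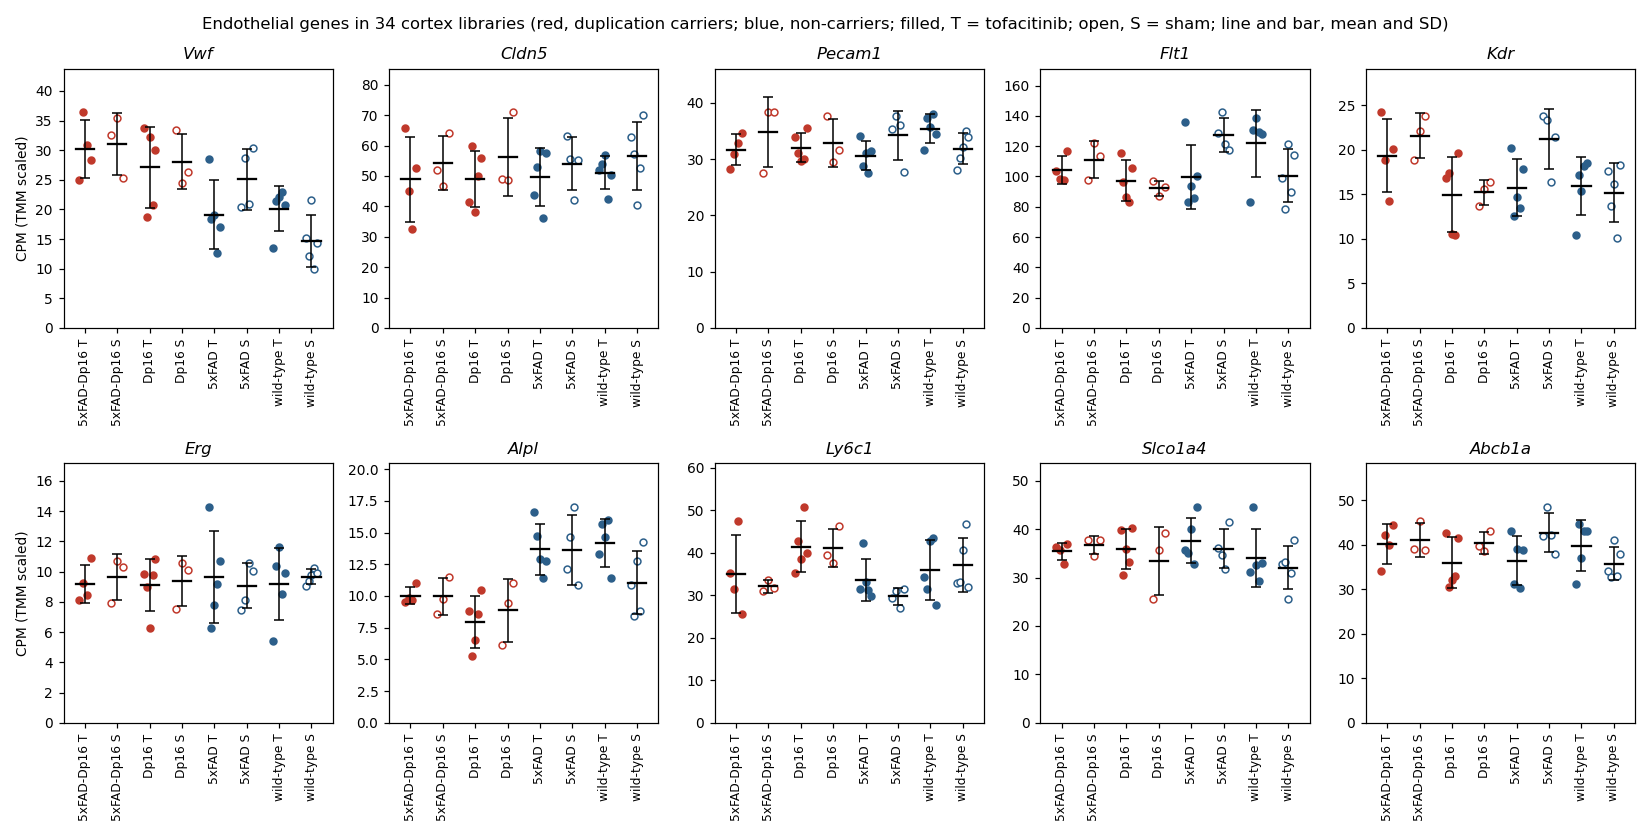
The panels plot TMM-scaled CPM of the 10 genes in each of 34 libraries on linear axes from 0, with the mean and SD of each group, duplication carriers in red and non-carriers in blue, tofacitinib filled and sham open. Vwf stands higher and Alpl lower in the 4 carrier groups, and Erg lies near 9 to 10 CPM on average in all 8 groups.

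Neither VEGF receptor passed the test over the duplication. Flt1 averaged 101 ± 11.8 CPM in duplication carriers (SD, n = 15) and 112 ± 21.4 CPM in non-carriers (SD, n = 19). Its difference of -0.13 on the log2 scale did not pass (95% interval -0.28 to 0.02, adjusted p = 0.465), although 14 of 15 carriers lay below the median of the non-carriers. Kdr averaged 17.5 ± 4.23 CPM in carriers and 16.8 ± 3.82 CPM in non-carriers (log2 difference 0.06, 95% interval -0.15 to 0.27, adjusted p = 0.873). Of the 10 members, Kdr had the largest log2 difference over 5xFAD status. In 5xFAD-Dp16 sham it was 18.9, 22.1 and 23.8 CPM and in 5xFAD sham 23.8, 23.3, 16.3 and 21.4 CPM, against 17.6, 13.7, 16.1, 10.1 and 18.3 CPM in wild-type sham. The 5xFAD-Dp16 mice lay above all wild-type mice, and 1 of the 4 5xFAD mice lay among them. Over 5xFAD status the averages were 19.1 ± 3.93 CPM in carriers (SD, n = 16) and 15.3 ± 3.12 CPM in non-carriers (SD, n = 18), and 8 of 16 carriers exceeded every non-carrier. The edgeR test did not call this difference (log2 0.34, SE 0.103, 1.26-fold, adjusted p = 0.105), in a contrast with 0.42% of genes called, whereas DESeq2 did (adjusted p = 0.0379). DESeq2 also called many more of all genes in this contrast, as given below. With the length trend removed the Kdr difference was 0.27 (adjusted p = 0.131).

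Flt1 was also uneven across the transgene groups. In 5xFAD sham it was 129, 143, 121 and 118 CPM, against 99.2, 78.3, 122, 89.6 and 114 CPM in wild-type sham. The groups overlapped in 1 wild-type mouse, and the difference of 0.34 on the log2 scale did not pass (adjusted p = 0.134). In 5xFAD tofacitinib it was 136, 83.1, 93.7, 85.8 and 99.98 CPM, so that replicate 1 lay with the sham mice and the other 4 below all of them. The difference from 5xFAD sham was -0.34 (adjusted p = 0.320) with all mice, and -0.50 (adjusted p = 0.0482) without 5xFAD tofacitinib 1. With all mice 0% of genes were called in this contrast, and the share without that mouse is not given here. No other fit without 1 library called the Flt1 difference. The length trend, by rho, was 0.226 to 0.390 in 5xFAD sham, -0.287 to 0.382 in 5xFAD tofacitinib and -0.246 to 0.277 in wild-type sham, and its part in the Flt1 values was not tested. In the fit with the trend removed, which was chosen after seeing the data, the Flt1 difference was 0.14 between 5xFAD sham and wild-type sham (adjusted p = 0.426) and -0.17 between 5xFAD tofacitinib and 5xFAD sham (adjusted p = 0.511).

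Neither junction gene passed in any of the 21 comparisons, and their groups overlapped. Cldn5 averaged 51.5 ± 10.6 CPM in duplication carriers (SD, n = 15) and 52.8 ± 8.67 CPM in non-carriers (SD, n = 19), a log2 difference of -0.02 (95% interval -0.21 to 0.17, adjusted p = 0.961). Its 8 group means ran from 48.9 to 56.6 CPM, a smaller range than the SD of 9.42 CPM over all 34 libraries. Pecam1 averaged 32.7 ± 3.61 CPM in carriers and 32.97 ± 3.43 CPM in non-carriers, a log2 difference of 0.01 (95% interval -0.10 to 0.12, adjusted p = 0.968). Pecam1 varied least among the members, with a coefficient of variation of 10.5% over the 34 libraries, whereas Vwf varied most, at 30.7%.

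Neither transporter passed in any comparison. Abcb1a averaged 39.04 ± 4.64 CPM in carriers and 38.5 ± 5.26 CPM in non-carriers of the duplication (log2 difference 0.05, 95% interval -0.08 to 0.17, adjusted p = 0.818). Slco1a4 averaged 35.4 ± 3.80 CPM in carriers and 34.9 ± 4.97 CPM in non-carriers (log2 difference 0.02, 95% interval -0.11 to 0.15, adjusted p = 0.937). Against 5xFAD status the differences were 0.07 for Abcb1a (adjusted p = 0.520) and 0.10 for Slco1a4 (adjusted p = 0.379). Of 16 other barrier transporters, among them the glucose transporter Slc2a1 (-0.02) and the lysolipid transporter Mfsd2a (0.11), 0 passed in the contrast over the duplication by edgeR, 2 had an unadjusted p under 0.05 (13.7% of all genes did), and their median was 0.006.

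Ly6c1 lay lower in mice with the transgenes, without passing the edgeR test. It was 30.9, 33.6 and 31.6 CPM in 5xFAD-Dp16 sham and 29.4, 31.1, 27.02 and 31.5 CPM in 5xFAD sham, against 32.8, 33.2, 40.7, 46.6 and 32.02 CPM in wild-type sham. All 5xFAD sham mice lay below all wild-type sham mice. Over the series it averaged 32.7 ± 5.35 CPM in 5xFAD carriers (SD, n = 16) and 38.6 ± 6.15 CPM in non-carriers (SD, n = 18), and 14 of 16 carriers lay below the median of the non-carriers. The log2 difference was -0.26 (SE 0.0759, 0.836-fold, edgeR adjusted p = 0.0985) and did not pass, whereas DESeq2 (adjusted p = 0.0282) and limma-voom (adjusted p = 0.0179) called it. Of all genes in this contrast edgeR called 0.42%, and DESeq2 and limma-voom each called many more, as given below. Without 5xFAD tofacitinib 2, whose value of 42.3 CPM was the highest of its group, edgeR gave -0.29 (adjusted p = 0.0422), and without 5xFAD-Dp16 tofacitinib 3 it gave -0.30 (adjusted p = 0.0387). In the fit with the length trend removed the difference was -0.19 (adjusted p = 0.165), and the part of that trend in the Ly6c1 values was not tested. In duplication carriers it was 37.8 ± 6.91 CPM and in non-carriers 34.3 ± 5.81 CPM (log2 0.15, adjusted p = 0.380).

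Erg, Cldn5 and Pecam1 did not pass between mice with and without the transgenes, with log2 differences of -0.00095, -0.04 and -0.02 and adjusted p of 0.998, 0.838 and 0.886. Alpl was at 12.1 ± 2.56 CPM in 5xFAD carriers and 10.7 ± 3.24 CPM in non-carriers, and Vwf at 25.6 ± 6.95 CPM in 5xFAD carriers and 21.9 ± 7.24 CPM in non-carriers, with log2 differences of 0.18 (adjusted p = 0.258) and 0.25 (adjusted p = 0.200). In 5xFAD-Dp16 against Dp16, no member passed under sham or under tofacitinib, where 0.00567% of genes were called in each. In 5xFAD tofacitinib against wild-type tofacitinib no member passed either, with 0.017% of genes called.

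Tofacitinib was compared with sham within each genotype. No member passed in edgeR, and 0% of genes were called in each genotype and in their mean. At an unadjusted p under 0.05, 3 members were higher in wild-type, namely Vwf (log2 0.45), Alpl (0.37) and Flt1 (0.28). In 5xFAD, 2 were lower, Kdr (-0.43) and Flt1 (-0.34), and in Dp16 and in 5xFAD-Dp16 there were 0. Over all 17632 genes tested, an unadjusted p under 0.05 was reached by 338 in 5xFAD-Dp16 (1.92%) and 362 in Dp16 (2.05%). It was reached by 2617 in 5xFAD (14.8%), 1288 in wild-type (7.3%) and 592 in the mean (3.36%). The counts of members are therefore no result about the members in particular. DESeq2 called 0 members in these comparisons, and limma-voom called 2 in 5xFAD, where it called 3038 of all genes, and 0 elsewhere. The mean effect of the drug lay between -0.15 for Cldn5 (95% interval -0.34 to 0.03) and 0.07 for Ly6c1 (-0.08 to 0.21). The interaction of tofacitinib with 5xFAD, with 0% of genes called, was farthest from 0 for Vwf at -0.42 (adjusted p = 0.364) and Flt1 at -0.40 (adjusted p = 0.331). Female and male mice differed by no called member, with 0.0624% of genes called, and the widest differences were -0.17 for Erg (adjusted p = 0.944) and -0.15 for Alpl (adjusted p = 0.944).

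The 2 called members were set beside lists of other vascular genes in the contrast between carriers and non-carriers of the duplication. Of 20 pan-endothelial genes, 2 fell and 0 rose, with a median of 0.01 against 0.0044 over all genes. Over all genes of this contrast, 2.14% were called and 13.7% had an unadjusted p under 0.05. Those that fell were Cdh5, the cadherin of endothelial junctions (log2 -0.27, 0.830-fold, adjusted p = 0.0491), and Mcam, an adhesion molecule shared with pericytes (-0.32, adjusted p = 0.0251). Tek, the angiopoietin receptor, was at -0.0023 (adjusted p = 0.996). Of 12 barrier junction genes 2 rose, both inside the segment: Jam2, a junctional adhesion molecule (1.66-fold, adjusted p = 1.7e-12), and Cxadr, a relative of it (1.66-fold, adjusted p = 6.39e-08). Of 18 ETS and other endothelial transcription factors 13 lay below 0, where the median over all genes was 0.0044. The list was not tested as a whole. Fli1, the ETS factor closest to Erg in sequence, fell (log2 -0.37, 0.774-fold, adjusted p = 0.00494), while Ets2 and Gabpa, of the segment, rose.

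Other groups moved in single genes. Of 10 capillary genes 2 rose, the carbonic anhydrase Car4 (1.16-fold, adjusted p = 0.0467) and the chemokine Cxcl12 (1.23-fold, adjusted p = 0.0193). Of 19 tested genes of VEGF, angiopoietin, Notch and TGF-beta signalling 1 rose, the peptide ligand Apln (1.32-fold, adjusted p = 0.000824). Of 14 genes known from the literature as ERG targets 2 rose, Vwf and Apln, and 1 fell, Cdh5, with a median of 0.0055. Of 14 tested segment genes near Erg or of vessels 11 rose, with the smallest adjusted p for Brwd1, Jam2, the calcineurin regulator Rcan1 (1.49-fold) and the endosomal sorting protein Vps26c (1.71-fold). In 18 tested genes of endothelial activation and haemostasis, 10 arterial and 9 venous genes, 0 were called by edgeR, and 3, 3 and 1 had an unadjusted p under 0.05, against 13.7% over all genes.

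Markers of other cells were compared in the same contrast. None of 14 pericyte and smooth muscle, 8 choroid plexus, 8 astrocyte or 8 neuron genes passed, and 2, 0, 2 and 2 of them had an unadjusted p under 0.05, against the same 13.7% over all genes. Of the pericyte and smooth muscle genes 12 of 14 lay below 0, with a median of -0.10 (Pdgfrb -0.13, adjusted p = 0.509). P2ry12 of microglia (-0.21, adjusted p = 0.0397) and Cnp of oligodendrocytes (-0.25, adjusted p = 0.0397) fell, in a contrast that called 2.14% of all genes. Each is a single gene of a list of 8 and is no measure of its cell type. The part of cell composition in the differences of Vwf and Alpl was not tested beyond the fit with the pan-endothelial level as a covariate, in which Vwf was at 0.57 (adjusted p = 0.00189) and Alpl at -0.49 (adjusted p = 0.000340). Between 5xFAD carriers and non-carriers, where 0.42% of all genes were called, 1 gene of these lists passed, Csf1r, a microglial growth factor receptor (1.24-fold, adjusted p = 0.0378).

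**Figure D3:**
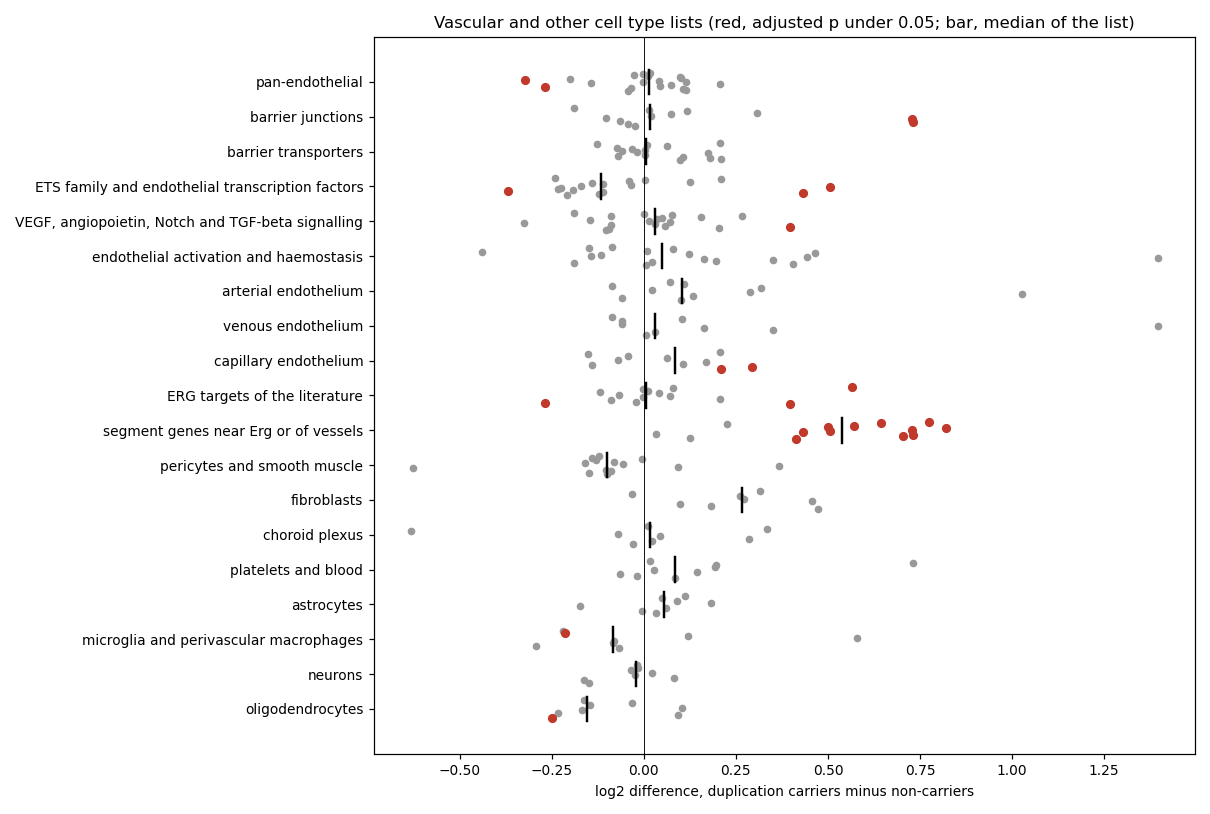
Each point is the log2 difference of a listed gene between duplication carriers and non-carriers, in rows by list, with genes at an adjusted p under 0.05 in red and the median of each list as a bar. The segment list stands to the right with 11 of 14 called, and the pan-endothelial list centres on 0 with 2 called below.

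The members did not vary as a single block across mice. Over 34 libraries, 36 pairs of the 9 genes outside the segment and 18 pairs with Erg, taken within carriers and within non-carriers, were tested with 100000 permutations, and p was adjusted over the 54. In the 36 pairs 7 correlations were positive and 1 was negative at the threshold. Flt1 and Abcb1a had the highest correlation (r = 0.74, rho = 0.71, permutation p = 1e-05, the smallest that 100000 permutations can give, adjusted p = 0.000540). Flt1 also went with Kdr (r = 0.69, rho = 0.67), and Pecam1 with Flt1 (r = 0.64, rho = 0.63) and with Abcb1a (r = 0.63, rho = 0.64), with adjusted permutation p of 0.000540, 0.00135 and 0.00135. Kdr and Abcb1a (r = 0.62, rho = 0.53), Vwf and Abcb1a (r = 0.59, rho = 0.54) and Flt1 and Alpl (r = 0.52, rho = 0.53) were the other positive pairs, with adjusted permutation p of 0.00162, 0.00189 and 0.0101. Kdr and Ly6c1 went in opposite directions (r = -0.53, rho = -0.53, adjusted permutation p = 0.0101). All 8 held without the 2 libraries farthest from the median of the first gene named in each pair.

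The libraries share the length trend described above, so the correlations were repeated without it. With that trend removed, Flt1 and Kdr (r = 0.40, adjusted permutation p = 0.0828) and Kdr and Ly6c1 (r = -0.29, adjusted permutation p = 0.293) no longer passed, and Cldn5 and Kdr did (r = 0.65, adjusted permutation p = 0.00108). With group and sex means taken out, Flt1 and Alpl (r = 0.41, adjusted permutation p = 0.0614) and Kdr and Ly6c1 (r = -0.38, adjusted permutation p = 0.0981) did not pass. Vwf and Flt1 (r = 0.66, adjusted permutation p = 0.000405), Cldn5 and Slco1a4 (r = 0.51, adjusted permutation p = 0.0154) and Alpl and Abcb1a (r = 0.50, adjusted permutation p = 0.0157) then passed, so that 9 of the 36 pairs were positive at the threshold in place of 7. None of the 18 pairs with Erg passed by Pearson's r. Erg and Alpl in carriers had r = 0.64 (n = 15, adjusted permutation p = 0.0572) and rho = 0.70 (adjusted permutation p = 0.0313), and r was 0.41 without the 2 farthest libraries, 0.62 with the length trend removed and 0.56 with group and sex means taken out, none of them past the threshold. Erg and Flt1 passed in carriers with the length trend removed (r = 0.71, adjusted permutation p = 0.0293), and in non-carriers with group and sex means taken out (r = 0.66, adjusted permutation p = 0.0157).

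**Figure D4:**
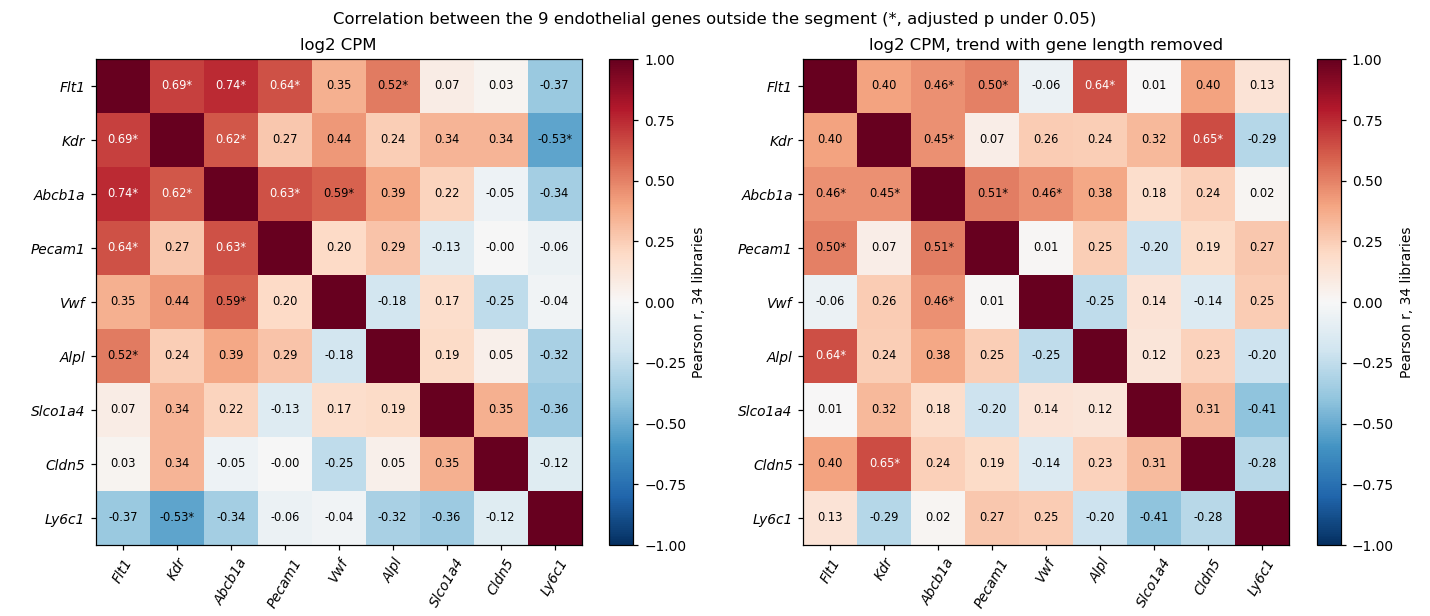
The heat maps show Pearson's r between the 9 genes outside the segment over 34 libraries, on log2 CPM at the left and with the trend of each library with gene length removed at the right, and a star marks an adjusted permutation p under 0.05. At the left Flt1 and Abcb1a share the highest value, 0.74, and Kdr and Ly6c1 the lowest, -0.53. At the right Kdr and Ly6c1 are at -0.29 without a star and Cldn5 and Kdr at 0.65.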

How the data were processed

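The authors deposited whole-number read counts per gene and RPKM values, 1 column of each per library. Per the labels' protocols, RNA was extracted with TRIzol and sequenced as paired-end 150-base reads from a strand-specific poly-A kit. Per the submitters' processing notes, bcl2fastq, FastQC 0.11.5, HISAT2 2.1.0, SAMtools 1.5, HTSeq 0.6.1 and build GRCm38 were used. The deposited counts entered edgeR 4.0.16 (R 4.3.3): TMM scaling, a low-count filter over the 8 groups, a quasi-likelihood F-test with sex as a covariate over all 34 libraries, and Benjamini-Hochberg adjustment over all genes tested, with calls under 0.05. Libraries are separate mice. Group values are TMM-scaled CPM, and RPKM served for levels between genes. Erg was also tested by exact permutation, and correlations of log2(CPM + 0.5) with 100000 permutations (scipy 1.17.1, numpy 2.4.6).

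The members and lists were chosen with earlier results of these data known. From each list up to 4 called genes with the smallest adjusted p were named, with a panel of Jam2, Ets2, Cxadr, Fli1, Cdh5, Tek, Slc2a1, Mfsd2a and Pdgfrb. Psmg1, B3galt5, Sh3bgr and the genes ranked below Erg were named after their values were seen.

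Alternatives were DESeq2 1.42.0, limma-voom 3.58.1 with sample weights, other filters and scalings, no sex term, a replicate block, the pan-endothelial level as a covariate, the compared groups alone, and each library left out. Removal of each library's trend with gene length was chosen after seeing the data. The fits were tested on simulated data. The labels give no batch or date.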

Additional observations from a re-analysis of the deposited data

Results flagged for a closer look

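In 60 tests of single libraries within groups of 4 or 5 mice, 4 stood apart by the distance to the nearest other library relative to the range of the group. Chance flags about 1 in 20 such groups. In wild-type tofacitinib 1, Vwf was 13.5 CPM, against 20.7 to 23.0 CPM in the other 4 mice, and Flt1 was 83.2 CPM, against 128 to 139 CPM. In 5xFAD tofacitinib 2, Ly6c1 was 42.3 CPM, against 29.8 to 33.1 CPM in the other 4. In wild-type tofacitinib 2, Slco1a4 was 44.5 CPM, against 29.2 to 33.03 CPM in the other 4.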

How the results depend on the processing

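Over the duplication, Vwf and Alpl were called under 11 of 11 alternatives and in 34 of 34 fits without 1 library. The log2 difference lay between 0.52 and 0.63 for Vwf and between -0.53 and -0.41 for Alpl over these, with adjusted p up to 0.0185 and 0.0157, both under the replicate block. Erg was not called in any, with log2 differences from -0.0119 to 0.118. Of the member values under alternatives, 0 reversed a called direction.

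The number of members called changed in other comparisons, and the cause was not tested. With DESeq2 and limma-voom, many more of all genes were also called in 5xFAD sham against wild-type sham and over 5xFAD status, as given below. The same held over 5xFAD status without a filter. The counts that follow are therefore not results about the members in particular. In Dp16 sham against wild-type sham it was 1 in place of 0 with the length trend removed, with DESeq2 and without a low-count filter. In 5xFAD sham against wild-type sham, in place of 0, it was 1 with DESeq2, without the sex term and with the compared groups alone, and 2 with limma-voom and without a filter. In 5xFAD-Dp16 sham against wild-type sham it was 0 in place of 1 with the endothelial covariate, with the compared groups alone and without wild-type sham 2 and 5xFAD tofacitinib 2 together. In Dp16 against wild-type under tofacitinib it was 0 in place of 1 with the replicate block and with the compared groups alone. In place of 0, limma-voom called 1 in 5xFAD against wild-type and 1 in 5xFAD-Dp16 against 5xFAD under tofacitinib, 2 in 5xFAD tofacitinib against 5xFAD sham, 1 over 5xFAD status and 3 in the interaction of tofacitinib with 5xFAD. Without a filter 1 was called in 5xFAD-Dp16 against wild-type and 1 in 5xFAD-Dp16 against 5xFAD under tofacitinib, 3 over 5xFAD status and 1 in that interaction, and DESeq2 called 2 over 5xFAD status. Without 1 library the count ran from 0 to 1 in the first 4 of these comparisons, in 5xFAD tofacitinib against 5xFAD sham and over 5xFAD status.

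The Erg difference in mean log2 CPM ran without 1 library from -0.0259 to 0.0735 among sham mice and from -0.0849 to 0.0625 among tofacitinib mice, and was 0.0031 among tofacitinib mice with TMM computed without segment genes. Counts over all genes moved more. Over the duplication, 378 genes were called, against 1760 with limma-voom, 672 without a filter, 669 without the 2 libraries and 206 with the replicate block. Over 5xFAD status 74 were called, against 587 with DESeq2, 589 with limma-voom, 1358 without a filter, 133 with the length trend removed, 19 with the endothelial covariate and 17 with the block. In 5xFAD sham against wild-type sham 3 were called, against 1587 with DESeq2, 2806 with limma-voom and 1428 with the groups alone. Over the alternatives other than leaving out 1 library, the count lay between 29 and 873 in 5xFAD-Dp16 sham against wild-type sham (64 as reported), 6 and 158 in Dp16 sham against wild-type sham (37), 13 and 182 in 5xFAD-Dp16 against 5xFAD under sham (18), and 1 and 52 in 5xFAD-Dp16 against Dp16 under sham (1). Under tofacitinib it lay between 5 and 189 in 5xFAD-Dp16 against wild-type (54), 13 and 196 in Dp16 against wild-type (44), 0 and 424 in 5xFAD against wild-type (3), 0 and 326 in 5xFAD-Dp16 against 5xFAD (42), and 1 and 111 in 5xFAD-Dp16 against Dp16 (1). For the drug, with 0 as reported, it reached 93 in 5xFAD-Dp16, 31 in Dp16, 3038 in 5xFAD, 50 in wild-type and 51 in the mean. The interactions reached 47 for duplication and 5xFAD (1), 55 for tofacitinib and duplication (0) and 3771 for tofacitinib and 5xFAD (0), and the sexes lay between 5 and 84 (11).

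The replicate numbers did not pair the mice: the deviations of same-numbered mice had a median correlation of 0.0144 over 98 pairs, of which 22 were over 0.1, and with the block Alpl in Dp16 against wild-type under tofacitinib had an adjusted p of 0.106. Among the 10 members, counts per library were lowest for Alpl, at 88 to 348, and Erg, at 101 to 293.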

Other observations

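Among the genes whose log2 CPM went most closely with the mean standardised level of the 9 members outside the segment, over 34 libraries, were Ptprb (r = 0.84), Frmpd3 (r = 0.80), and Aldh1l1, Eef2, Tbc1d1, Adgrf5, Sbf1, Sdha and Aatk (r = 0.79 to 0.78). Ptprb, a receptor phosphatase, and Adgrf5, an adhesion receptor, are among the pan-endothelial genes, while Aldh1l1 is best known from astrocytes. In the 19 non-carriers, those most like Erg were Lsm12 (r = 0.79), Rapgef5 (r = 0.78), Odf2 (r = 0.77), Adcy8 (r = 0.76) and Rsf1 (r = 0.75). These are descriptions of likeness over libraries that share depth and length trends.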
